A study of Mus musculus with 54 samples.

Results

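Quadriceps muscle of male C57BL/6J mice aged 130 weeks was compared with quadriceps of males aged 50 weeks. The comparison rests on 6 libraries, 3 per age and 1 per animal, of the 54 samples that the series lists for liver, kidney and quadriceps of both sexes. The members are all expressed genes, chosen by a minimum count and not by any difference with age: 14173 of the 55471 genes in the quadriceps table. C57BL/6J is an inbred laboratory strain, and no mouse carried an engineered allele or transgene according to the labels. The 130-week mice ate the control diet. The labels do not name the diet of the 50-week mice, whose library names carry the same SD code. Further groups used below are control females of 50 and 130 weeks and males and females of 130 weeks that ate a diet with corylin, a flavonoid, with 3 quadriceps libraries each, and liver and kidney of the same 6 control males. Animals aged 50 weeks are past maturity, so the comparison spans mature to very old age.

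Skeletal muscle loses mass and force late in life. Fibres are multinucleate cells driven by motor nerves, and the acetylcholine receptors that receive the nerve signal are held at the neuromuscular junction. When a junction is lost, the fibre switches on receptor subunits and regulators that innervated muscle keeps low. Muscle mass also depends on the ubiquitin ligases and the proteasome that degrade contractile proteins. Around the fibres lie collagen-rich connective tissue made by fibro-adipogenic progenitors and tendon cells, blood vessels, satellite stem cells and intramuscular nerves wrapped by Schwann cells.

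The libraries held 18.05 to 19.08 counts in young and 14.9 to 16.82 in old males, in multiples of 1e+06,, so depth differed between the ages without overlap. The 6 libraries carried the markers of skeletal muscle: Acta1, skeletal actin, stood at 47117 to 67040 TPM. Alb of liver was at 1.06 to 8.91 TPM and Umod of kidney at 0.0995 to 0.881 TPM. Xist, expressed from the inactive X chromosome of females, had 1 to 5 counts in the 6 male libraries and 1753 to 3910 in the 6 control female libraries. The share of counts from mitochondrially encoded genes was 12.29% to 15.83% in young and 8.093% to 13.36% in old males. Old male 3 carries the letter R in its library name, whose meaning is not given, and the other 5 males carry B. In the fit of 18 quadriceps libraries, old female 3 stood apart, at -109.8 on a first principal component that ran from -28.79 to 33.58 over the others. The part of depth, of the R library and of the mitochondrial share in the results below was not tested unless a value is given.

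No gene passed the test as designed. That test was edgeR's quasi-likelihood test in 1 fit of all 18 quadriceps libraries, with adjusted p under 0.05, and its smallest adjusted p was 0.0742 (0%, 0 of 14173 genes). At an unadjusted p under 0.05 it gave 2597 genes (18.3%), of which 1352 were higher (9.54%) and 1245 lower (8.78%) in old males. Without old female 3, the same fit called 194 genes, 100 higher and 94 lower, and without old male 1 it called 173. A fit of the 6 male libraries alone called 664 of 13259 genes (5.01%), 301 higher (2.27%) and 363 lower (2.74%). DESeq2 on the 18 libraries called 495 of 13833 genes (3.58%), 304 higher (2.2%) and 191 lower (1.38%), and the authors' deposited table called the same 495. The biological coefficient of variation, the spread between replicates beyond counting error, was 0.256 in the 18-library fit and 0.161 in the male libraries.

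A gene is described below as called, higher or lower where both the male-library fit and DESeq2 gave an adjusted p under 0.05. This held for 302 of the 14173 genes (2.13%), 155 higher (1.09%) and 147 lower (1.04%) in old males. All 302 had every old library on one side of every young library, an order that 2183 genes showed upward (15.4%) and 2324 downward (16.4%). The designed test called none of them, so each statement rests on the other 2 fits, which share the 6 male libraries and are not independent. Fold changes below are log2, old minus young, with standard errors from the male-library fit. Levels are CPM, counts divided by a library's scaled total in multiples of 1e+06, in the order of replicates 1 to 3. The plot of all genes shows the calls on both sides of 0.

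**Figure D1:**
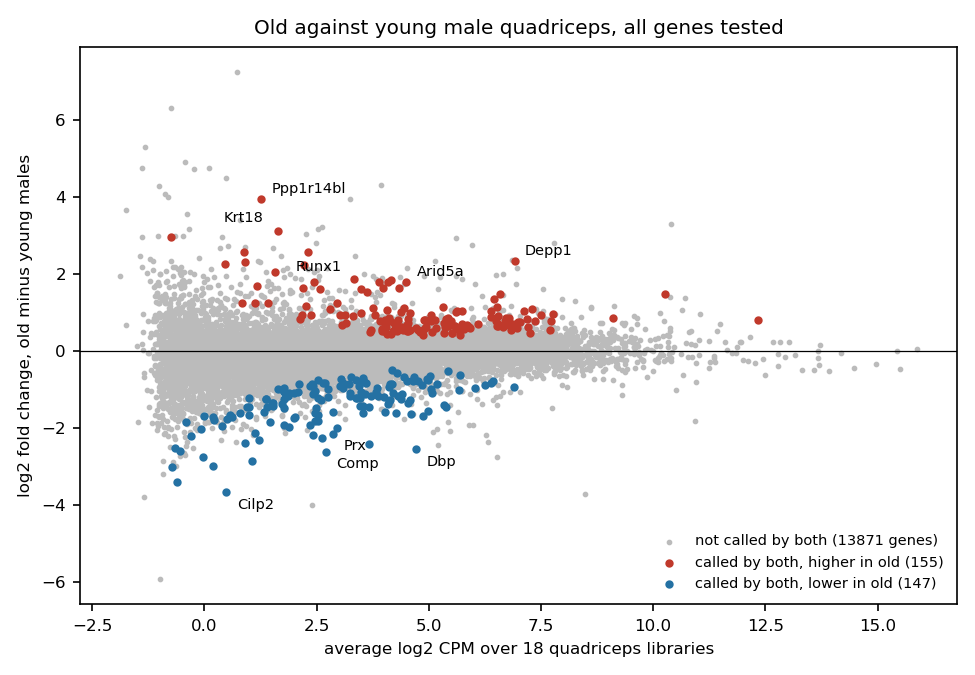
Log2 fold change of old against young males (vertical, 18-library fit) against average log2 CPM over the 18 quadriceps libraries (horizontal), 1 point per gene tested. Red and blue points are the 155 higher and 147 lower genes called by both the male-library fit and DESeq2; grey points are the other 13871 genes, some of which have larger fold changes.

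Genes of connective tissue were among those on the lower side. Of all genes called by both tests, in either direction, 42 stood in a gene list used here and 260 stood in none. Of 36 collagen and matrix genes tested, 34 had a negative fold change, and in 28 all 3 old libraries lay below all 3 young ones. That order held for 16.4% of all genes tested. The median fold change of the list was -0.88, beside -0.02 over all genes tested. The male-library fit called 21 of the 36 lower and none higher, DESeq2 called 9 lower, and both called the same 9: Col6a1, Col6a2, Col6a3, Col12a1, Col15a1, Loxl2, Mmp2, Timp2 and Tnc. Over all genes, the male-library fit called 2.74% lower, DESeq2 1.38% and both 1.04%. The summed CPM of the list was 1132 to 1263 in young and 607 to 804 in old males, with no overlap. The count in the male-library fit ran from 2 (without young male 2) to 23 (without old male 1) when 1 library was left out, and was 8 without old male 2, 5 without old male 3 and 8 without young male 1, always all lower.

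Col15a1 encodes a collagen of basement membranes in muscle and capillaries, and it lies on chromosome 4 (47208161 to 47313167, GRCm38). It was measured at 14.1, 16.2 and 11.6 CPM in young males and at 3.71, 4.02 and 2.71 CPM in old males. The lowest young library was above the highest old one by a wide margin. The fold change was -1.99 ± 0.20 (SE, n = 3 per age), with adjusted p = 0.00307 (edgeR, male libraries) and 0.00281 (DESeq2), and it stayed called in the male-library fit whichever library was left out. Mmp2, a secreted protease that degrades basement membrane collagen (chromosome 8, 92827291 to 92853420), went from 26.9, 32 and 27.1 CPM to 12.5, 10.8 and 10.7 CPM. The old libraries lay within a narrow band at less than the lowest young value, with a fold change of -1.33 ± 0.13 and adjusted p = 0.00307 (edgeR, male libraries) and 0.0196 (DESeq2), again in every fit with 1 library left out. The 3 chains of collagen VI, the microfibril that links fibres to their surroundings, were lower together. Col6a1 stood at 51.3, 48.9 and 44.8 CPM in young and 22.2, 14 and 13.1 CPM in old males, a fold change of -1.54 ± 0.18. Col6a2 and Col6a3 had fold changes of -1.63 ± 0.22 and -1.59 ± 0.20.

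The fibrillar collagens were lower in the male-library fit only. Col1a1, a chain of collagen I, the main fibre of tendon and fascia, was at 42.0, 40.9 and 50.8 CPM in young and 16.6, 8.46 and 8.05 CPM in old males. Its groups did not overlap, with a fold change of -2.0 ± 0.27 and adjusted p = 0.0182 (edgeR, male libraries) but 0.143 (DESeq2). Col3a1, collagen III, went from 61.4, 63.4 and 40.4 CPM to 22.7, 10.4 and 10.4 CPM, a fold change of -1.91 ± 0.36 with adjusted p = 0.0436 (edgeR, male libraries) and 0.218 (DESeq2). Fbn1, the fibrillin-1 of elastic microfibrils, was at 27, 28.2 and 21 CPM in young and 12.8, 11.1 and 9.54 CPM in old males. For each of these genes the old libraries were the 3 lowest of the 6.

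Genes that mark tendon cells had the lowest median of the lists described, -2.05 over 10 genes, all with a negative fold change. Cilp2, Comp, Tnc and Tnmd were called by both tests, and Chad, Fmod and Thbs4 by DESeq2 alone. Of all genes, both tests called 1.04% lower, DESeq2 1.38% and the male-library fit 2.74%. Tnc also stands in the matrix list. Cilp2, a cartilage intermediate layer protein also made at the muscle-tendon junction (chromosome 8, 69880369 to 69887687), fell from 1.47, 2.34 and 3.21 CPM to 0.251, 0.211 and 0.0677 CPM. Its fold change was -3.65 ± 0.49, with adjusted p = 0.00948 (edgeR, male libraries) and 0.00141 (DESeq2). Comp, a matrix protein of tendon that binds collagen, was at 4.07, 12.4 and 14.3 CPM in young and 2.39, 1.13 and 1.49 CPM in old males. Tnmd, tenomodulin of mature tendon cells, was at 1.71, 5.78 and 3.49 CPM against 1.13, 0.634 and 0.745 CPM. Young male 1 was the lowest young library for all 3 genes, and the old libraries were still below it. The summed level of the tendon list was 122 to 293 CPM in young and 28.5 to 75.2 CPM in old males. The male-library fit called 4 of the 10 lower, and 0 without young male 2, 1 without old male 2, old male 3 or young male 3, and 6 without old male 1.

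Genes of Schwann cells and myelin were lower too. All 14 tested had a negative fold change, and the median was -1.40. In 10 of the 14 the ages did not overlap, while 16.4% of all genes lay below without overlap. Both tests called 6 of the 14 lower, among them Drp2, Mbp, Pmp22, Prx and S100b, beside 1.04% of all genes. Prx encodes periaxin, which with Drp2 anchors the outer myelin membrane of peripheral nerve (chromosome 7, 27499324 to 27520214). It was measured at 12.6, 7.54 and 12.5 CPM in young and 3.27, 2.47 and 1.62 CPM in old males. The highest old library was under the lowest young one, the fold change was -2.13 ± 0.28, and adjusted p was 0.00978 (edgeR, male libraries) and 0.000222 (DESeq2), and the call held in each fit with 1 library left out. Pmp22, a myelin membrane protein, was at 23.6, 21.6 and 24.9 CPM against 11.9, 12.3 and 7.99 CPM, a fold change of -1.11 ± 0.16. Mbp, myelin basic protein, was at 22.6, 13.9 and 24.4 CPM against 8.48, 7.90 and 7.04 CPM, a fold change of -1.37 ± 0.21. Sox10, the transcription factor that defines the Schwann lineage, was at 1.06, 0.701 and 1.55 CPM in young and 0.314, 0.775 and 0.0677 CPM in old males, and its groups overlapped. The list's count in the male-library fit was 2 without young male 2, 3 without old male 3 or young male 1, and 5 to 7 without any of the others.

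Other cell types around the fibre are given by their lists. Of 14 markers of fibro-adipogenic progenitors, 13 had a negative fold change (median -0.70), and Col15a1 and Pi16 were called by both tests; Col15a1 and Lum also stand in the matrix list. Pdgfra, the receptor that defines these cells, was at 21.9, 26.3 and 24.2 CPM in young and 15, 11.4 and 18.7 CPM in old males, with adjusted p = 0.0572 (edgeR, male libraries). All 9 smooth muscle and pericyte markers were negative (median -0.80), with Acta2, smooth muscle actin, and Mylk, myosin light chain kinase, called by both. Over all genes tested, both called 1.04% lower, the share to set beside the progenitor and smooth muscle calls. Acta2 fell from 17.1, 12.6 and 13.3 CPM to 7.29, 5.71 and 3.05 CPM. The 14 endothelial markers had a median of -0.35 and no call, with summed levels of 883 to 1090 CPM in young and 441 to 864 CPM in old males. Pax7, the factor that defines satellite cells, was called lower by both tests, at 2.59, 1.75 and 2.35 CPM against 1.01, 0.634 and 0.474 CPM. The Pax7 call held in 1 of the 6 male-library fits with 1 library left out. In whole muscle, fewer cells of a type and less RNA per cell cannot be told apart, and neither can a different amount of tendon or nerve in the piece of muscle taken. The matrix, tendon and Schwann lists were lower in the same old libraries, and the part that each played in the other was not tested.

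**Figure D2:**
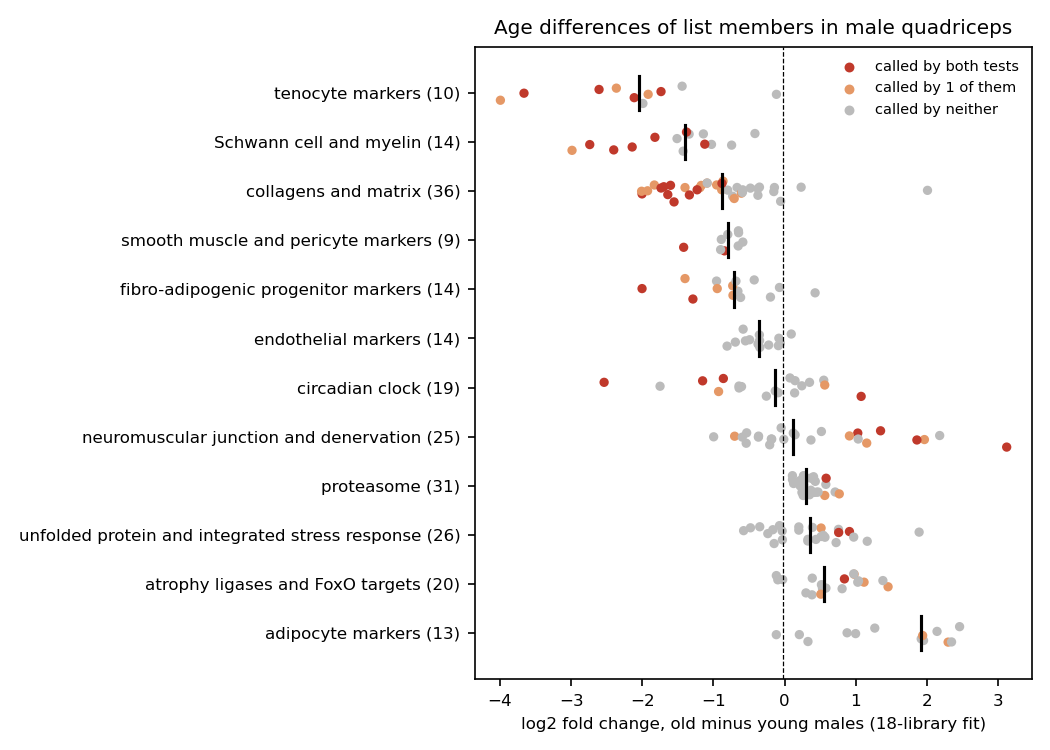
Log2 fold change of old against young males (horizontal, 18-library fit) for each member of 12 gene lists, with the number of genes tested in brackets. Red points were called by both the male-library fit and DESeq2, orange points by 1 of them and grey points by neither; vertical bars are list medians and the dashed line is the median of all genes, -0.02. Tendon, Schwann and matrix lists lie left of it, and proteasome genes lie right of it without exception.

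Genes of the neuromuscular junction and of denervation were split in direction, and 4 of them were higher. Of the 25 tested, 13 had a positive fold change (14 under size-factor scaling) and 12 a negative one, the median was 0.12, and 9 lay above the young libraries without overlap. That upward order held for 15.4% of all genes tested. Both tests called Chrnb1, Gadd45a, Krt18 and Runx1 higher and none lower, where 1.09% of all genes were called higher. The male-library fit alone added Ankrd1, Fgfbp1 and Musk as higher and Chrne as lower. That fit's 8 calls became 0 without young male 2, 3 without young male 1 and 5 without old male 2, old male 3 or young male 3.

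Runx1, a transcription factor that denervated muscle induces and that limits fibre wasting (chromosome 16, 92601466 to 92826149), was at 3.48, 3.51 and 3.61 CPM in the young males. In old males it was at 9.55, 11.7 and 17.3 CPM, and every old library was above the young ones. The fold change was 1.87 ± 0.23, with adjusted p = 0.00808 (edgeR, male libraries) and 0.00518 (DESeq2). Chrnb1, the beta subunit of the muscle acetylcholine receptor (chromosome 11, 69784036 to 69795943), rose from 30.4, 34.1 and 28.9 CPM to 56.9, 51.3 and 82.6 CPM, a fold change of 1.04 ± 0.18. Gadd45a, a stress gene induced early after denervation, went from 42.7, 44.5 and 32.2 CPM to 82.3, 116 and 106 CPM, a fold change of 1.36 ± 0.17. Krt18, a keratin that is low in healthy fibres, went from 0.295, 0.467 and 0.516 CPM to 1.38, 3.31 and 6.63 CPM, a fold change of 3.13 ± 0.63. Old male 3 was the highest library for Runx1, Chrnb1 and Krt18. Over the 6 fits that left out 1 library, the fold change of Runx1 ran from 1.59 to 2.06, and it was called in 5. Gadd45a was called in 5 of these fits, Chrnb1 in 4 and Krt18 in 1.

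Other junction genes differed from these 4 in direction or did not pass both tests. Chrne, the epsilon subunit of the adult receptor, was at 26.1, 23.1 and 24.2 CPM in young and 11.8, 15 and 18.3 CPM in old males, lower in the male-library fit only (adjusted p = 0.0435, edgeR). Chrna1, the alpha subunit that denervation induces, was at 16.2, 15 and 14 CPM against 15.5, 15.7 and 18.9 CPM, and the groups overlapped. Myog, myogenin, which drives receptor genes in denervated fibres, overlapped as well, at 4.36, 2.98 and 2.75 CPM against 4.15, 5.71 and 4.60 CPM. Musk, the kinase that assembles the junction, was at 5.66, 4.21 and 7.39 CPM against 13.9, 11.2 and 13.3 CPM, without overlap, with adjusted p = 0.0197 (edgeR, male libraries) and 0.104 (DESeq2). Sln, sarcolipin, a small inhibitor of the calcium pump, was at 0.766, 1.87 and 1.49 CPM in young and 8.67, 16.8 and 57.2 CPM in old males. Its fold change of 4.34 ± 0.98 passed DESeq2 (adjusted p = 0.0088) and not the male-library fit (adjusted p = 0.0745, edgeR), and old male 3 held by far the highest value.

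Of the genes of muscle wasting, 1 was called by both tests. Of 20 atrophy ligases and FoxO targets, 17 had a positive fold change, the median was 0.56 and 10 did not overlap upward. That upward order held for 15.4% of all genes tested. The 1 gene called by both was Cblb, where 1.09% of all genes were called higher. The male-library fit added Bnip3, and DESeq2 added Ctsl, Map1lc3b and Sesn1. Cblb, a ubiquitin ligase that targets the insulin receptor substrate in unloaded muscle (chromosome 16, 52031225 to 52208048), was at 31.7, 36.3 and 30.1 CPM in young and 54.2, 53 and 68.6 CPM in old males. All old values were above all young values, with a fold change of 0.85 ± 0.14 and adjusted p = 0.0164 (edgeR, male libraries) and 0.000222 (DESeq2). The best known ligases did not pass. Trim63, MuRF1, was at 406, 731 and 1358 CPM in young and 1485, 2459 and 2557 CPM in old males, with adjusted p = 0.123 (edgeR, male libraries) and 0.125 (DESeq2). Fbxo32, atrogin-1, was at 811, 1301 and 1695 CPM against 2038, 2761 and 2669 CPM, with adjusted p = 0.0593 (edgeR, male libraries) and 0.0777 (DESeq2). For both ligases the old libraries were the 3 highest, and young male 1 was the lowest and young male 3 the highest of the young.

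All 31 proteasome genes tested had a positive fold change, also under both other scalings, and in 21 every old library lay above every young one. That order held for 15.4% of all genes tested. The median of the 31 was small, 0.30. Psmb1, a subunit of the catalytic core, was called by both tests, at 39.6, 46.6 and 46.9 CPM in young and 56.9, 67.5 and 75.1 CPM in old males (fold change 0.60 ± 0.13). Psmc2, an ATPase of the regulatory particle, was called by the male-library fit alone and Psmd11, a lid subunit, by DESeq2 alone. The share of all genes called higher was 1.09% by both, 2.27% by the male-library fit and 2.2% by DESeq2. The summed level was 2764 to 3327 CPM in young and 3397 to 4176 CPM in old males. The male-library fit's 2 calls became 0 when any single library other than old male 1 was left out, and 15 without old male 1.

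Among stress genes of the endoplasmic reticulum and of translation control, 26 were tested, and 17 had a positive fold change (median 0.36). Xbp1, the transcription factor of the endoplasmic reticulum stress pathway, was called by both tests, at 69.6, 77.4 and 80.9 CPM in young and 113, 120.5 and 152 CPM in old males. Dnajb9, a chaperone that Xbp1 controls, was called by both as well, at 50.2, 62.5 and 76.7 CPM against 91.1, 114 and 151 CPM. Both tests called 1.09% of all genes higher. Hspa5, the main chaperone of that compartment, overlapped between ages. Edem1, which hands misfolded glycoproteins to degradation and stands in no list, was at 6.96, 7.07 and 4.35 CPM against 12.2, 22.9 and 28.8 CPM, with a fold change of 1.81 ± 0.35, and was called by both. In the 6 male-library fits with 1 library left out, Xbp1 was called in 4, Dnajb9 in 2 and Edem1 in 1. Gclc, the catalytic subunit of the rate-limiting enzyme of glutathione synthesis, varied little between libraries of an age. It stood at 21, 20.4 and 20.2 CPM in young and 31.2, 30 and 33.4 CPM in old males, a fold change of 0.63 ± 0.10 with adjusted p = 0.0184 (edgeR, male libraries) and 0.00141 (DESeq2).

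**Figure D3:**
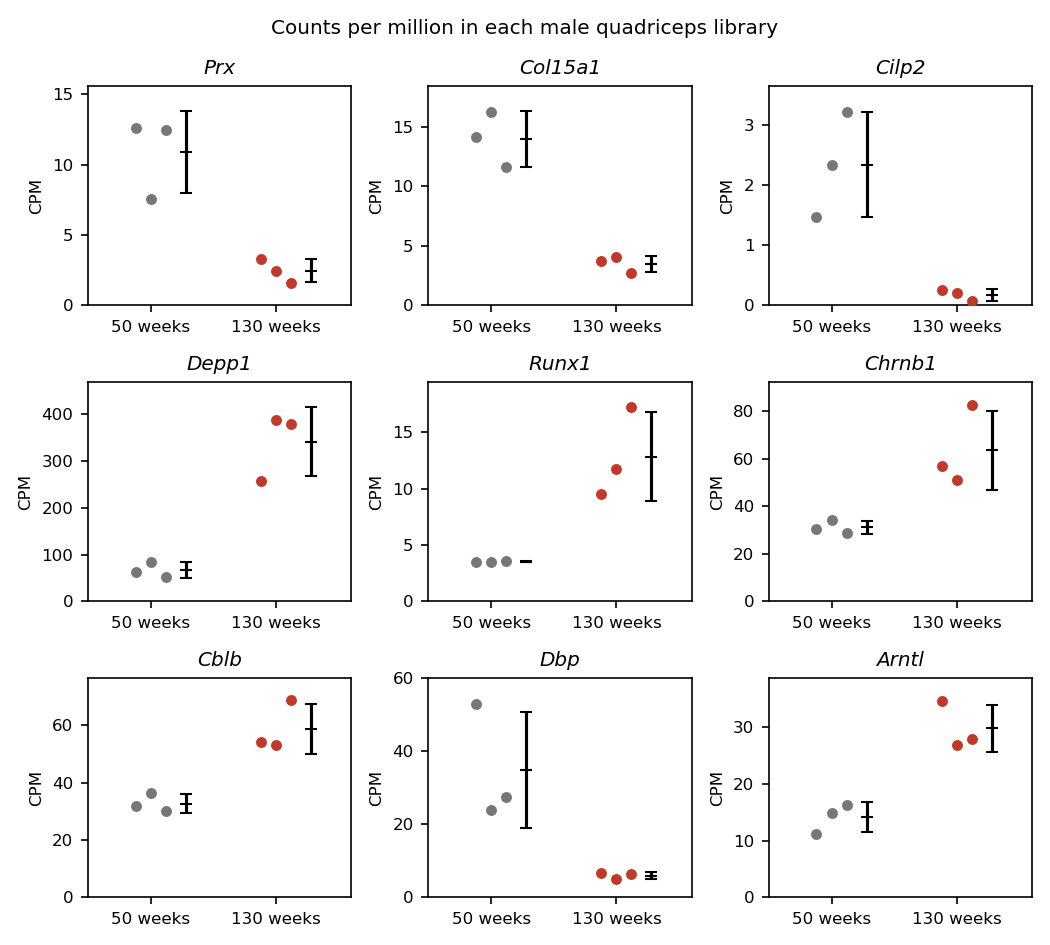
CPM (vertical, from 0) of 9 genes in each male quadriceps library at 50 weeks (grey) and 130 weeks (red), with the mean ± SD of 3 libraries beside the points. In all 9 panels the old and young libraries do not overlap; Prx, Col15a1, Cilp2 and Dbp are lower and the other 5 genes higher in old males.

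The circadian clock list moved in both directions. The clock is a loop in which Arntl (Bmal1) and Clock drive E-box genes, the products of Per and Cry genes and of Bhlhe41 repress them, and the outputs Dbp, Hlf and Tef act on D-box sites. Of 19 genes, 11 had a negative fold change. Both tests called Arntl higher and Bhlhe41, Dbp and Hlf lower, and the male-library fit added Rora as higher and Per3 as lower. Of all genes, both tests called 1.09% higher and 1.04% lower, and the male-library fit 2.27% and 2.74%. The time of day of tissue collection is not given in the sources used here. To show what surrounds these genes, 300 bases of RefSeq promoter (GRCm38.p6, from 250 before to 50 after the start of transcription, on the gene's strand) are printed for 4 genes whose window holds a motif of its regulators. Capitals mark the motif: the D-box TTANGTAA in Per3 (chr4:151044616-151044915, minus strand), the E-box CACGTG in Bhlhe41 (chr6:145865371-145865670, minus strand), the RORE core AGGTCA in Arntl (chr7:113207261-113207560, plus strand) and the MyoD-type E-box CAGCTG in Musk (chr4:58285712-58286011, plus strand).
Per3: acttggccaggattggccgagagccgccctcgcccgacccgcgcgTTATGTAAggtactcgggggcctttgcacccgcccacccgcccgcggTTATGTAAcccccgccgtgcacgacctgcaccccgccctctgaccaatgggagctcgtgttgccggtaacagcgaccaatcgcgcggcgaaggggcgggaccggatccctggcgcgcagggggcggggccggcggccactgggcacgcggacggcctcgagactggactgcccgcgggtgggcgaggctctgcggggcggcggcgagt
Bhlhe41: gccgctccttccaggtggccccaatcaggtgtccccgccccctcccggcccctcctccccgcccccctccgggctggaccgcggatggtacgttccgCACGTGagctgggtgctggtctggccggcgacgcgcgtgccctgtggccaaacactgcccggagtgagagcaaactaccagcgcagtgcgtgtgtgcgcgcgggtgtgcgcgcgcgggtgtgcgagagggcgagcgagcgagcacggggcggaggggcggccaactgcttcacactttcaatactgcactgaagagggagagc
Arntl: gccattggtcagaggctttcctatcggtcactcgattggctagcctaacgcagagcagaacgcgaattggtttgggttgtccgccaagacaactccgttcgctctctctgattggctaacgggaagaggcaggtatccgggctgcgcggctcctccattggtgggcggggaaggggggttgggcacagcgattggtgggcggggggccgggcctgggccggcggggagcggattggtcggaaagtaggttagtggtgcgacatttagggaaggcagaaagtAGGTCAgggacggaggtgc
Musk: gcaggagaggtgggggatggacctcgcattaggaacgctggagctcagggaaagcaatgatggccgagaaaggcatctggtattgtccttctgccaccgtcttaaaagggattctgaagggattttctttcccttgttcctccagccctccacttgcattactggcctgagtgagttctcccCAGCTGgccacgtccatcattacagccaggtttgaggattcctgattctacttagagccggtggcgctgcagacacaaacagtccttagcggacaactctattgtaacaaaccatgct

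The Per3 window held 2 D-boxes, which begin at -205 and -158 from the start site. A D-box was found in 2.32% of 32851 RefSeq promoters searched on both strands, an E-box in 7.15%, and the RORE core and the MyoD-type E-box in 16.3% each. Among 13297 promoters of tested genes, the D-box was in 1.49%, the E-box in 9.75%, the RORE core in 12.7% and the MyoD-type E-box in 15.9%. The Bhlhe41 E-box begins at -153, the Arntl RORE core at 31 and the Musk E-box at -68. Another Arntl window, which begins at base 113207215 of chromosome 7, held no RORE core. The windows of Dbp and Hlf hold neither E-box, D-box nor RORE core. Of 16 clock genes with a promoter entry, 5 held an E-box, 1 a D-box and 5 a RORE core. A gene was counted if any of its windows matched, whereas the shares above are per promoter. Of 18 junction and denervation genes, 6 held the MyoD-type E-box, and none of the 4 called ones, Chrnb1, Gadd45a, Krt18 and Runx1, did. A match is a sequence and says nothing of binding in these muscles.

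Dbp, a transcription factor whose RNA follows the clock with a large amplitude (chromosome 7, 45705088 to 45710203), was at 53.1, 23.8 and 27.6 CPM in young and 6.66, 4.93 and 6.36 CPM in old males. Young male 1 was far above the other young libraries, and the old ones lay close together below all of them. The fold change was -2.52 ± 0.34, with adjusted p = 0.0194 (edgeR, male libraries) and 0.000122 (DESeq2). Arntl (chromosome 7, 113207465 to 113314126) ran the other way, at 11.2, 14.8 and 16.4 CPM in young and 34.6, 26.9 and 28 CPM in old males, a fold change of 1.09 ± 0.16. Per3, a period gene whose RNA peaks opposite to Arntl, was at 33.0, 29.2 and 26.1 CPM against 12.5, 17.3 and 16.6 CPM, with adjusted p = 0.0184 (edgeR, male libraries) and 0.0642 (DESeq2). Bhlhe41, the repressor Dec2, was at 66.4, 55.1 and 62.6 CPM against 34.9, 24.5 and 41.8 CPM. Clock and the repressor Nr1d1 did not pass in either fit. In the 6 male-library fits with 1 library left out, Arntl was called in 5, Dbp in 4, and Bhlhe41 and Hlf in 1 each. Corylin-fed males of the same age stood at 24.7, 36.4 and 26.6 CPM for Dbp, 13.4, 12.7 and 9.41 CPM for Arntl and 34.0, 32.3 and 36.6 CPM for Per3. For these 3 genes, each corylin library was on the young side of each old library; no test was made of this.

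The rule of smallest unadjusted p in the designed fit, among genes with an average log2 CPM of at least 1, named 8 genes per direction. Of these 16 genes, all were called by both tests and none overlapped. The rule picked them by their p in the same male libraries, so this is no independent support. Depp1, a FoxO target linked to autophagy (chromosome 6, 116650609 to 116652794), was among the higher ones. It was at 63.9, 85.0 and 53.2 CPM in young and 257, 389 and 379 CPM in old males, a fold change of 2.35 ± 0.22 with adjusted p = 0.00388 (edgeR, male libraries) and 6.14e-05 (DESeq2). Corylin-fed males, at 57.3, 50.0 and 71.3 CPM, lay in or just under the young range. Ppp1r14bl (chromosome 1, 23100473 to 23102253) went from 0.648, 0.409 and 0.286 CPM to 8.86, 4.86 and 7.11 CPM, a fold change of 3.95 ± 0.34. It is a close relative of Ppp1r14b, so the authors' counting may have split reads between them. Arid5a, an RNA-binding protein that stabilises inflammatory transcripts, Tiam2, a Rac exchange factor, and Arhgap26, a GTPase-activating protein, had fold changes of 1.80 ± 0.29, 1.80 ± 0.18 and 1.81 ± 0.17. Tiam2 was at 2.42, 2.16 and 2.23 CPM in young and 7.10, 7.90 and 8.53 CPM in old males. Ric3, a chaperone of acetylcholine receptors, and Sptssa, a subunit of serine palmitoyltransferase, had smaller fold changes of 0.95 ± 0.17 and 0.58 ± 0.13. Of the 16 genes, 5 were called in all 6 male-library fits with 1 library left out, while Sptssa was called in 1.

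The lower genes of that rule, beside Prx and Dbp, were Gatm, Dnm1, Steap3, Islr, Ccdc3 and Vwa1. Gatm, the first enzyme of creatine synthesis, was at 4.60, 2.98 and 4.12 CPM in young and 1.45, 0.916 and 0.880 CPM in old males, a fold change of -1.82 ± 0.28. Dnm1, dynamin 1 of vesicle endocytosis, was at 6.37, 7.65 and 5.79 CPM against 2.64, 2.33 and 1.56 CPM. Islr, made by mesenchymal stromal cells, was at 18, 15.8 and 11.7 CPM against 6.98, 4.86 and 4.67 CPM, and Vwa1, a matrix protein that binds perlecan and collagen VI, at 16.4, 13.8 and 13.5 CPM against 8.04, 6.27 and 6.29 CPM. For each of them the highest old library was under the lowest young one. Steap3, a ferrireductase, had a fold change of -1.08 ± 0.18 and Ccdc3, a secreted protein, one of -2.23 ± 0.35.

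Calls that held in the male-library fit and in each of its 6 fits with 1 library left out numbered 13. The higher ones were Arhgap26, C4b, Depp1, Hp, Ppp1r14bl, Rhpn2 and Tiam2, and the lower ones Col15a1, Mmp2, Prx, Scd2, Thbs1 and Xlr3b. C4b, complement component 4, was at 7.60, 7.83 and 5.27 CPM in young and 25.5, 25.2 and 29.4 CPM in old males, with adjusted p = 0.00258 (edgeR, male libraries) and 0.0827 (DESeq2). Hp, the haemoglobin-binding acute-phase protein haptoglobin, was at 1.59, 2.98 and 1.66 CPM against 8.86, 5.99 and 6.70 CPM, with adjusted p = 0.0133 (edgeR, male libraries) and 0.471 (DESeq2). Thbs1, the matricellular protein thrombospondin-1, was at 17.7, 28.5 and 21.3 CPM against 8.04, 7.05 and 5.89 CPM, and Scd2, a stearoyl-CoA desaturase, at 14.6, 12 and 15.8 CPM against 5.59, 5.57 and 4.74 CPM. C4b and Xlr3b each have near-identical neighbours, so their counts may include or lose reads of those copies.

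Fuel use was represented by single genes. Pdk4, which blocks entry of pyruvate into the citric acid cycle during fasting, was at 3688, 4320.3 and 3299 CPM in young and 5805, 7058 and 6869.6 CPM in old males, a fold change of 0.82 ± 0.16, called by both. Zbtb16, a glucocorticoid-induced transcription factor, was called by both as well, at 66.3, 104 and 106 CPM against 166, 139 and 183 CPM. With 1 library left out, the male-library fit called Zbtb16 in 0 of 6 fits and Pdk4 in 1. Nuclear genes of the respiratory chain had a negative fold change in 74 of 77, a median of -0.27 and no call in any fit. The 19 citric acid cycle genes and the 13 mitochondrially encoded genes had medians of -0.23 and -0.49 and no call either. Dmd, dystrophin, was higher by 0.48 ± 0.12, and its call held in 1 of the 6 fits with 1 library left out. Myc, a growth-promoting transcription factor, went from 7.19, 4.15 and 3.95 CPM to 11.2, 15.8 and 17.1 CPM.

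In the lists of contractile genes, only Sln, the calcium pump inhibitor described above, passed a test. Of 16 slow fibre genes, 14 had a negative fold change, with a median of -1.22, and in 4 the old libraries lay below the young ones without overlap. Over all genes tested, 16.4% lay below in this way. Of 18 fast fibre genes, 12 had a negative fold change, with a median of -0.07. Fast Myh4 made up 90.0%, 90.5% and 93.4% of adult myosin heavy chain TPM in young males and 96.2%, 88.1% and 98.8% in old ones. Myh2, of fast oxidative fibres, was 2.06%, 1.36% and 0.913% in young and 0.399%, 0.959% and 0.0102% in old males. Slow Myh7 was at most 0.0433% in any of the 6. No member of the slow, fast or developmental contractile lists was called by the male-library fit, and Sln was the only one by DESeq2.

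Few immune and senescence markers passed. None of 19 macrophage markers was called, their median was 0.32, and their summed level overlapped at 57.8 to 100.3 CPM in young and 73.1 to 117 CPM in old males. Irgm2, an interferon-induced GTPase, was the only one of 30 interferon-stimulated genes called by both tests, which called 1.09% of all genes higher. Gbp10, a GTPase gene outside that list, was called higher by both as well. It was at 2.18, 3.33 and 2.01 CPM in young and 5.91, 16.5 and 12.9 CPM in old males. Cdkn2a, the senescence marker p16, had 4, 4 and 1 counts in young and 10, 16 and 21 counts in old males, without overlap. It was too low for the count filter of the designed fit, and no result of the male-library fit is given for it here. Cdkn1a, p21, was at 29.4, 47.1 and 113 CPM against 112, 145 and 169 CPM, and the ages overlapped. Eda2r, a p53 target and receptor of the ectodysplasin family, was at 37.8, 37.9 and 48.9 CPM against 96.8, 59.8 and 117 CPM, and passed the male-library fit (adjusted p = 0.0443, edgeR) but not DESeq2 (0.0789). Of 13 adipocyte markers, 12 had a positive fold change (median 1.92), with Acvr1c and Retn called by the male-library fit and none by DESeq2. The male-library fit called 2.27% of all genes higher. In females 12 of the 13 had the opposite sign, and none passed the test of the sex difference. Adipoq, adiponectin, was at 2.95, 5.26 and 0.974 CPM in young and 11.1, 8.25 and 15.4 CPM in old males. It passed neither fit (adjusted p = 0.091, edgeR, male libraries, and 0.414, DESeq2), and young females held 0.775, 93.0 and 1.29 CPM.

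The age difference was then set against that of females in the same 18-library fit. The difference between the sexes passed for 32 of 14173 genes (0.226%), 11 with a difference above 0 (0.0776%) and 21 below (0.148%). By estimate, 20 of the 32 were lower in old males and higher in old females, 11 were the reverse, and Socs3 was higher in both. In females alone that fit called 945 genes (6.67%), 638 higher (4.5%) and 307 lower (2.17%). The male values of these genes share the libraries described above. The 6 genes with the smallest p, all above 0, were Zc3h6, Sptssa, Zfp943, Brcc3, Epm2aip1 and Pou2f1. Sptssa was higher in old males by 0.57 ± 0.10 and lower in old females, a difference of 1.10 ± 0.15 with adjusted p = 0.0117 (edgeR). Depp1 had a difference of 3.48 ± 0.60 (adjusted p = 0.0420, edgeR), with fold changes of 2.34 in males and -1.14 in females. Thy1, a surface glycoprotein of fibroblasts and T cells, went from 4.66, 4.67 and 4.64 CPM to 2.20, 0.705 and 0.745 CPM in males, and its sex difference was -3.19 ± 0.56 (adjusted p = 0.0420, edgeR). Dnm1, Islr and Vwa1 had differences of -2.1 ± 0.38, -2.1 ± 0.38 and -1.60 ± 0.31. Among the 36 matrix genes, 31 had the opposite sign in females, with a female median of 0.87, yet none passed the test of the sex difference. Without old female 3, the library that stood apart, 25 of the 36 had the opposite sign and the female median was 0.19. Col1a1 was at 35.1, 11.2 and 270 CPM in old and 17.5, 36.5 and 19.1 CPM in young females, so old female 3 was far above the rest, old female 1 lay within the young range and old female 2 below it. Without old female 2, 24 of the 36 matrix genes passed the test of the sex difference, and 4 did without old female 1. The count of 32 genes over the whole table became 910 without old female 2, 244 without old female 1, 17 without old female 3, and 0 to 20 when any other single library was left out.

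**Figure D4:**
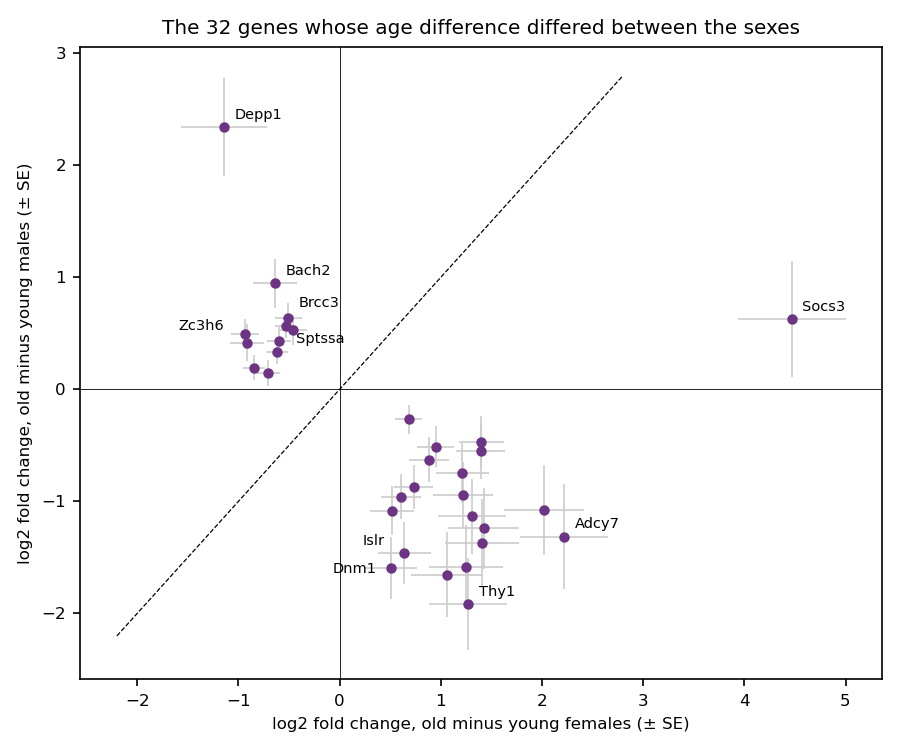
Log2 fold change with age in females (horizontal) and males (vertical), each ± SE from the 18-library fit, for the 32 genes whose age difference differed between the sexes. Points on the dashed line would have equal fold changes; 20 genes lie in the lower right, 11 in the upper left, and Socs3 alone is positive in both.

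Liver and kidney of the same 6 males, as identified by the animal codes in the library names, served for the comparison between tissues, in 1 fit that kept each animal as a block. The age difference in quadriceps differed from that in liver for 1370 of 17224 genes (7.95%), 297 above 0 (1.72%) and 1073 below (6.23%), and from that in kidney for 329 (1.91%), 98 above (0.569%) and 231 below (1.34%). Of the 36 matrix genes, 27 were below 0 against liver and 11 against kidney, and none above. Col6a1 differed by -2.0 ± 0.24 from liver (adjusted p = 9.44e-05, edgeR) and by -1.35 ± 0.22 from kidney (adjusted p = 0.00633, edgeR). Its mean level was 7.86 CPM in young and 10.4 CPM in old liver, and 16.2 CPM and 13.6 CPM in kidney. Thbs1 differed by -3.15 ± 0.29 from liver and by -1.64 ± 0.17 from kidney, where its mean was 54.9 CPM in young and 52.4 CPM in old males. Prx differed from liver by -3.37 ± 0.81 and from kidney by -2.05 ± 0.44. The counts of matrix genes below 0 ran from 17 (without old male 3) to 26 against liver and from 2 (without young male 2) to 14 (without old male 1) against kidney with 1 animal left out, and against kidney they were 4 without old male 2 and 7 without old male 3.

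All 31 proteasome genes had a larger age difference in quadriceps than in liver and in kidney, under both scalings, and 7 and 3 of them passed. Of all genes, 1.72% passed above 0 against liver and 0.569% against kidney. Against liver, the 7 became 1 without old male 2 or old male 3 and 0 without young male 2; against kidney, the 3 became 0 without any 1 of old males 2 and 3 and young males 1 and 2. The median log2 ratio of mean CPM, old over young, was 0.28 in quadriceps, -0.22 in liver and -0.25 in kidney. Of the 20 atrophy genes, 6 passed above 0 against liver and 4 against kidney, and none below. Against liver, the 6 became 3 without old male 2 and 2 without old male 3. Against kidney, the 4 became 0 without old male 2, young male 1 or young male 2 and 1 without old male 3. Gclc was higher with age in quadriceps by estimate, while its mean in liver was 342 CPM in young and 170 CPM in old males, a difference of 1.64 ± 0.33 (adjusted p = 0.00518, edgeR). Dbp, Arntl and Per3 did not pass against either tissue: mean Dbp was 45.5 CPM in young and 8.83 CPM in old liver, and mean Arntl 10.3 CPM and 20.9 CPM.

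**Figure D5:**
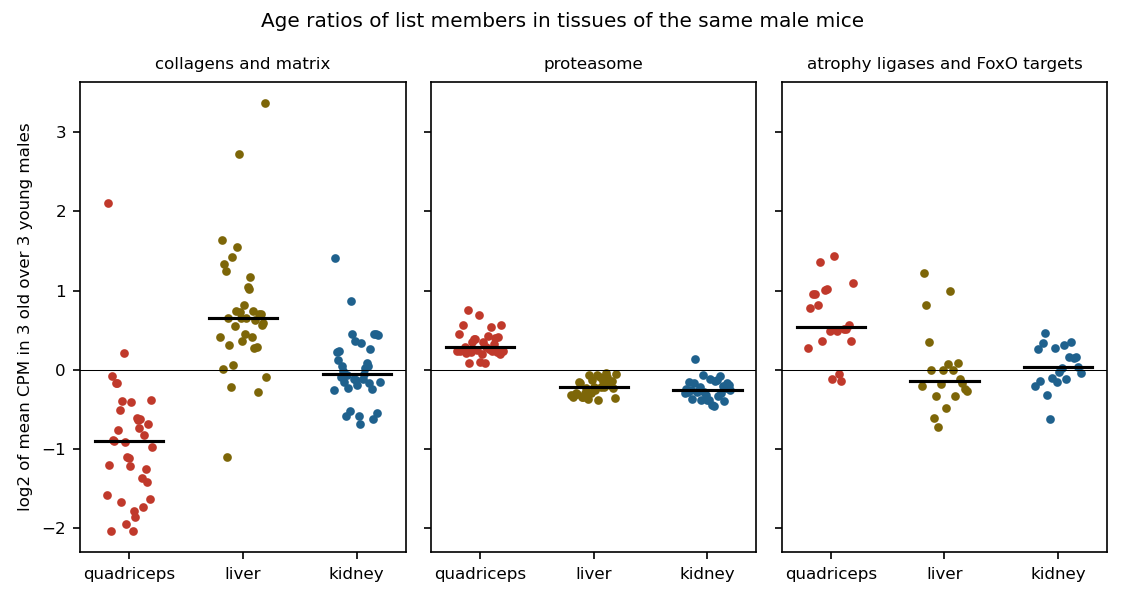
Log2 ratio of the mean CPM of 3 old over 3 young males (vertical) in quadriceps, liver and kidney, 1 point per gene and a bar at the median, for 36 matrix genes, 31 proteasome genes and 20 atrophy genes. The matrix median is -0.90 in quadriceps and 0.65 in liver, and the proteasome median is above 0 in quadriceps only.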

How the data were processed

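Libraries were made from poly(A) RNA with a kit that keeps the strand and sequenced as 150 bp pairs, per the labels' protocols. The submitters' processing notes name HISAT2 2.1.0, featureCounts 2.0.1, fastp 0.20.0 and FastQC 0.11.9, and build GRCm38 (mm10). How the counting used strand and which annotation it used were not stated in the labels or headers. The deposited files hold raw counts, TPM made by the authors, and log2 fold changes and p-values of the authors' own comparisons, the last 2 used only to compare calls. The deposited table had 0 blank or total rows, and 0 columns of per-sample values were without a sample.

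Genes were kept by filterByExpr (minimum count 10, minimum total 15). edgeR 4.0.16 (R 4.3.3; quasi-likelihood, robust, TMM) was fitted over 18 quadriceps libraries in 6 groups, with Benjamini-Hochberg adjustment at 0.05. The tissue difference was fitted over 18 libraries of 6 animals. The 6 male libraries alone and DESeq2 1.42.0 were further fits, used to name genes because the designed fit called none; requiring a call by both was chosen after the data were seen. CPM uses TMM totals. Scripts were tested on simulated data. No 2 of the 6 libraries agreed within sampling noise: the chi-square per degree of freedom was 15.04 to 123. The labels do not say whether animals shared litters or cages.

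The rule for named genes takes the 12 largest changes and 5 smallest p-values per direction among those past the threshold or, where too few pass, the 8 with the smallest unadjusted p per direction, each with an average log2 CPM of at least 1 and without predicted genes. Other genes were chosen after their values were seen. The comparison, the 46 gene lists and the rules were chosen with earlier results of these data known. Gene coordinates are from GENCODE vM21 and promoters from RefSeq.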

Additional observations from a re-analysis of the deposited data

Results flagged for a closer look

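The age difference in quadriceps differed between males and females, by the test of the difference itself, for 32 genes. The male minus female difference, on the log2 scale, was 1.43 for Zc3h6, 1.10 for Sptssa, 1.04 for Zfp943, 1.15 for Brcc3, 1.04 for Epm2aip1 and 0.952 for Pou2f1, each with a positive fold change in males and a negative one in females.

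The age difference of the same males differed between quadriceps and liver for 1370 genes and between quadriceps and kidney for 329 genes. Against liver, the quadriceps minus liver difference was -7.43 for Bmper, -4.23 for Epb41l3, -3.15 for Thbs1, -4.51 for Smpd3, -3.12 for Pik3cd and -2.33 for Sirpa. The mean level of Bmper was 3.92 CPM in young and 1.95 CPM in old quadriceps, and 0.198 CPM and 15.6 CPM in liver. Against kidney, the difference was -1.64 for Thbs1, -3.51 for Chrna2, -2.04 for Nav2, -2.43 for Itgb4, -2.14 for Cited4 and -1.50 for Scd2. Chrna2 had mean levels of 6.56 CPM in young and 1.55 CPM in old quadriceps, and 1.47 CPM and 3.86 CPM in kidney.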

How the results depend on the processing

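The 18-library count of 0 was also 0 with size-factor scaling, upper-quartile scaling and a replicate block, 7 without the count filter, 495 with DESeq2, 664 with the 6 male libraries and 1544 with those and a replicate block. It was 261 with the 9 male libraries and 194 without old female 3, both chosen after the data were seen, and 0 to 173 with 1 of the 6 male libraries left out. The male-library count of 664 was 672 with size factors, 2346 without the filter, 1544 with the replicate block and 1221 with DESeq2 on those libraries. Leaving out 1 library gave 15 (without young male 2) to 1770 (without old male 1), and 170, 131, 97 and 374 without old male 2, old male 3, young male 1 and young male 3; of the 664 calls, 15 to 627 were shared. The cause was not tested.

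The 32 sex differences were 30 with size factors, 29 with upper-quartile scaling, 54 without the filter, 18 with the replicate block, 727 with DESeq2, and 0 to 910 with 1 library left out. The 1370 differences from liver were 1375 with size factors, 1959 without the filter and 612 to 1527 with 1 animal left out. The 329 from kidney were 309, 1068 and 38 to 456. No gene passes in the 18-library fit; of 1590 alternative values of male age differences of described genes, 1219 did not pass either, 371 passed, and none changed sign. In the male-library fit, 13 of the 664 calls held whichever library was left out. Of 187 values for sex differences, 84 no longer passed. The 96 for tissues cover the 6 genes of smallest p per tissue, and all still passed. Of 250 counts of called list members, 119 moved by over 1.5 times.

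Same-numbered old and young males had correlations of deviations of 0.107, -0.0546 and 0.134, and not every library correlated best with its own number, so the numbers were not taken as pairs. With 3 libraries per age, some genes whose ages did not overlap, such as Trim63, did not pass, and depth was lower in all old libraries.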
